A study of Homo sapiens with 16 samples.

Results

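Cyclins, cyclin-dependent kinases (CDKs) and the cell division cycle (CDC) genes were followed through ribosome profiling of cells given rocaglamide A (RocA), a plant-derived inhibitor of translation. They were taken by symbol: CCN with a letter and a digit, CDK with a digit, CDKN, CDC with a digit, or ANAPC. Of 99 such symbols in GENCODE 29, 98 were found among the 18514 coding genes that could be named in the data, and CDC14C was not named. The symbols group proteins by name, so that splicing factors, a chaperone and regulators of the GTPase CDC42 stand beside the cell cycle machinery.

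Ribosome profiling counts the mRNA pieces that ribosomes protect from nuclease, so a gene's footprints follow the number of ribosomes on its mRNA. RocA at 0.3 µM and at 3 µM, and DMSO, its solvent, were given for 30 min to 4 established human cancer lines labelled WT in genetic background: NCI-H1650 and NCI-H520 from lung, Hs 936.T and A375 from melanoma. Each line gave 1 library at each RocA dose and 2 with DMSO, 16 in all, so a line under 1 dose has no replicate and the 4 lines served as replicates of a dose. The labels do not say whether libraries came from separate cultures, and the p-values then measure the spread between these libraries only. The labels of 2 NCI-H520 libraries, DMSO replicate 2 and 3 µM, name the line NCI-H521 in one field and carry 520 in the title, and the title was used.

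Library depth sets what can be seen. Counts over named genes were 84514 to 997570 in RocA libraries and 957429 to 5577951 in DMSO libraries. The 98 genes together had 304 to 4192 counts in RocA libraries and 4556 to 34937 in DMSO libraries. In the shallowest, NCI-H1650 at 3 µM, 1 count equals 9.2 CPM, counts scaled to a common library size. The scaling used the trimmed mean of M-values, so every change is relative to the other genes of its library, and a change of all genes at once was not measured. Summed footprints of 10 melanocyte genes, a check of line identity, stood at 0.693 and 1.61% of the Hs 936.T DMSO level in the RocA libraries of NCI-H520 but at 3.27 and 7.81% in its DMSO libraries. In NCI-H1650 they stood at 0.485 to 0.799% and in A375 at 1.55 to 2.37%. The part of this signal in the NCI-H520 values below was not tested.

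The cell cycle is driven by CDKs, kinases that work only when bound to a cyclin whose amount rises and falls. D-type cyclins with CDK4 and CDK6 and E-type cyclins with CDK2 carry cells from G1 into S phase, A- and B-type cyclins with CDK1 carry them into mitosis, and the CDKN proteins hold the kinases back. CDC25 phosphatases remove the phosphates that keep CDKs off, CDC6, CDC7 and CDC45 start DNA replication, and the anaphase promoting complex (the ANAPC subunits with CDC16, CDC23, CDC26 and CDC27, switched on by CDC20) marks cyclins for destruction. Other cyclins and CDKs act on transcription and splicing. RocA holds the helicase eIF4A on purine-rich RNA and so blocks scanning from the mRNA's 5′ end, and the title of the series names DDX3 as another target.

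With RocA, footprints fell on more of these genes than they rose on. Of the 98 genes, 78 had enough counts for the dose test, which fits line and dose together over all 9633 genes kept (edgeR's quasi-likelihood test, Benjamini-Hochberg adjusted, a call being an adjusted p under 0.05). At 0.3 µM 52 of the 78 passed (66.7%, against 59.7% of all genes tested) and at 3 µM 55 (70.5%, against 56.9%). At 0.3 µM 39 of the 78 fell (50%, against 32.2% of all genes tested) and 13 rose (16.7%, against 27.5%). At 3 µM 39 fell (50%, against 31.9%) and 16 rose (20.5%, against 25%). The median log2 fold change of the 78 was -0.61 at 0.3 µM and -0.72 at 3 µM, against -0.09 and -0.16 over all genes tested. The 2 doses share their DMSO libraries. No mRNA levels were used, so fewer mRNAs, fewer ribosomes on each and fewer cells in the phase that uses a gene cannot be told apart. Both doses called 37 genes lower and 11 higher, 0 genes were called in opposite directions, and 19 were called at neither dose. Falls of at least 2-fold were called for 27 genes at 0.3 µM and 28 at 3 µM, and rises of that size for 6 genes at each. Neither these counts nor those for both doses were set beside all genes tested, so they carry no comparison with the background. In 48 of the 52 genes called at 0.3 µM and 49 of the 55 called at 3 µM all 4 lines moved the same way. The share of all called genes that did so was not counted. The error of the test includes the spread between lines in their response, so a call favours genes whose lines agree. Some signs also rest on 0 counts, as for ANAPC1 and CDK13 in NCI-H1650 at 3 µM. The share of a library's footprints on the 98 genes was 0.328 to 0.42% in RocA libraries and 0.476 to 0.689% in DMSO libraries. Genes with many counts weigh most in this share, and it was not set beside the shares of other gene sets.

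**Figure D1:**
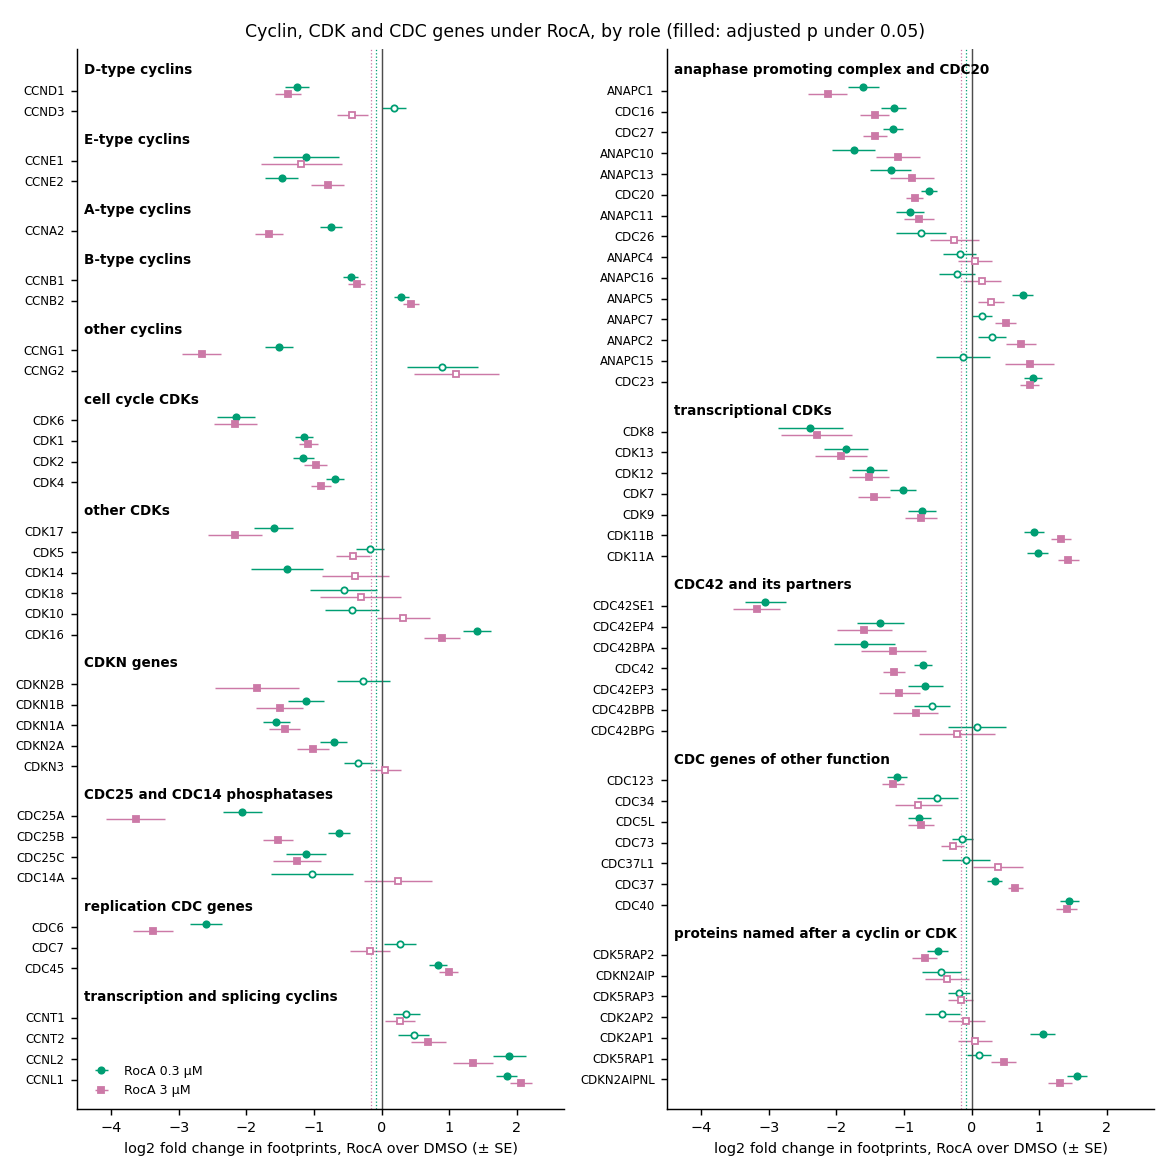
Log2 fold changes (x axis, with SE) of the 78 tested genes, by role, at 0.3 µM (circles) and 3 µM (squares) over DMSO; filled symbols passed the test and dotted lines mark the medians of all genes tested. The cell cycle CDKs, CDKN genes and CDC25 genes lie to the left of 0 almost throughout, down to -3.64 for CDC25A, while CCNL1 reaches 2.06 on the right.

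Stretches from the 5′ ends of 12 mRNAs are shown because RocA is known to act on purine-rich stretches there. For each gene the longest unbroken run of A and G (any order, transcript strand only) was found in the annotated 5′ untranslated region (UTR) of the GENCODE 29 transcript that stood for it. Each line below holds at most 30 bases around that run, 5′ to 3′ in DNA letters, with the run in capitals. The first 6 fell strongly, the next 4 rose, and the last 2 go against that order, CDC45 having risen and CDC73 having passed the test at neither dose, and all 12 were chosen after their values were seen.
CDC25A: gcggaggcAGAGGAAGAGGGAGcgggagct
CDC6: gaggaggtGGAAAGAAGAGGAttgctcgag
CDK6: gcttcGAGGAGGGAAGAGGAGGGAtcggct
CDK13: ggagcGGAGAGGGAAGGGGAGGAGcgagcc
ANAPC1: cagaatAGGGGAGGGAGAGGGAAtgagaag
CDC42SE1: tccaaacaccAGGGAAAGAGccctttgggg
CCNL1: cccggcggtcacGGGAAtatccgtcgcgcc
CDK11A: cttctcaggctcAGGGAccggccgcggccc
CDC40: ctccgcAGAAGAtttgttgccgtc
CDC23: tgattggctggagtggcccgagtcGGGAAA
CDC45: AAAGAAAGGAAGGctgggaactaagaagct
CDC73: cggcGAAGGAGGAGGAGGAAGAGGGcgagg
Their positions on GRCh38 are chr3:48187968-48187997, minus strand for CDC25A, chr17:40287998-40288027, plus strand for CDC6, chr7:92833593-92833622, minus strand for CDK6, chr7:39949751-39949780, plus strand for CDK13, chr2:111884061-111884090, minus strand for ANAPC1, chr1:151055769-151055798, minus strand for CDC42SE1, chr3:157160161-157160190, minus strand for CCNL1, chr1:1724265-1724294, minus strand for CDK11A, chr6:110180421-110180444, plus strand for CDC40, chr5:138213313-138213342, minus strand for CDC23, chr22:19479826-19479855, plus strand for CDC45, and chr1:193122098-193122127, plus strand for CDC73.

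In the 6 that fell, the run measured 14 bases in CDC25A, 13 in CDC6, 19 in CDK6, 19 in CDK13, 17 in ANAPC1 and 10 in CDC42SE1. In the 4 that rose it measured 5 bases in CCNL1, 5 in CDK11A, 6 in CDC40 and 6 in CDC23. These are not simply the strongest changes. CDK8 and CCNG1, which fell more than ANAPC1 at 3 µM, had runs of 8 bases, and CDK2AP1 and CDK16, which rose at 0.3 µM, had runs of 13 and 8. Over the 17646 named genes with an annotated 5′ UTR, a run of at least 14 bases is present in 10.7%, one of at least 19 in 3.14%, and one of at least 6 in 76.7%. Of the genes here with a UTR and a dose test (77), the 39 lower at 3 µM had a median run of 8 bases, and 18 of them (46.2%) had a run of at least 10. The 22 not called had a median of 9, and 8 of them (36.4%) had such a run. The 16 higher at 3 µM had a median of 6, and 2 of them (12.5%) had such a run. Among these 16, ANAPC7, ANAPC2 and CCNL2 have annotated UTRs of 1, 5 and 6 bases, too short for such a run. Of all 9399 tested genes with a UTR the median was 8 and 30.9% had such a run, with 42.2% of those lower and 17.9% of those higher at 3 µM. UTR length differed in the same way, with a median of 279 bases in the 39 lower genes and 67 in the 16 higher ones, against 173 over all tested genes. The shortest annotated UTR had 33 bases in the lower genes and 1 base in the higher ones. Longer UTRs hold longer runs (Spearman's rho 0.49 across the 77 genes), and the parts of length and run cannot be told apart here. Across the 77 genes, which share their libraries and are not independent replicates, the change at 3 µM had a rho of -0.35 with run length and -0.49 with UTR length. Across all 9399 genes the same values were -0.34 and -0.38. The share of purines in the whole UTR had a rho of 0.15 with the change at 0.3 µM and 0.22 at 3 µM across the 77 genes, against -0.15 and -0.13 across all genes. CDC73, whose product belongs to the PAF1 transcription complex, had a run of 21 bases and log2 fold changes of -0.14 ± 0.15 at 0.3 µM and -0.28 ± 0.18 at 3 µM, which passed at neither dose. CCNA2 fell with a run of 5.

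**Figure D2:**
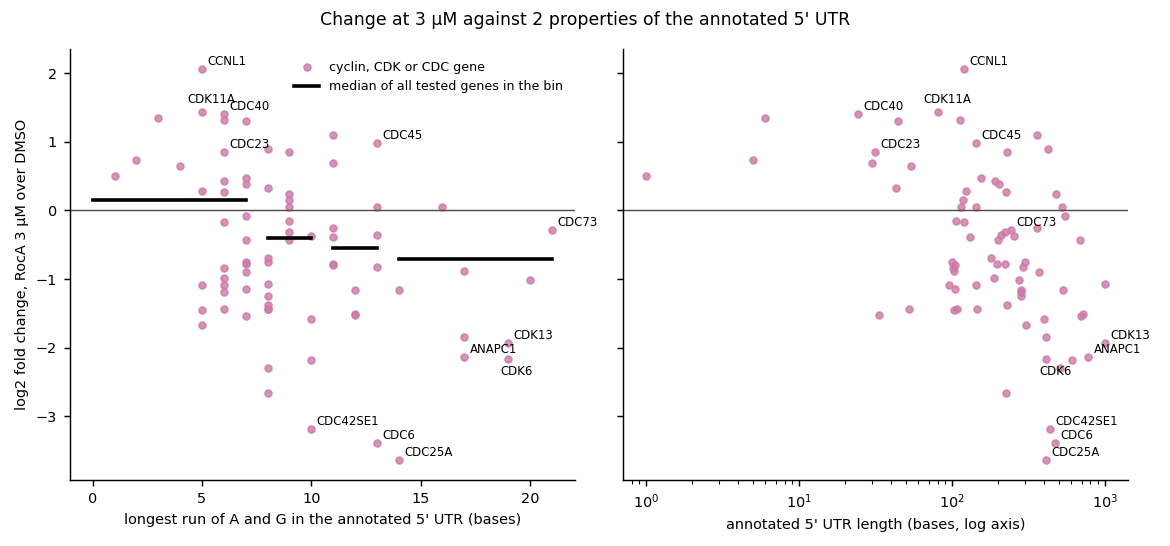
Log2 fold change at 3 µM over DMSO (y axis) against the longest run of A and G (left, bases) and the length (right, bases, log axis) of the annotated 5′ UTR, 1 point per gene; black bars are medians of all tested genes in 4 bins of run length. The medians of all genes go from 0.16 (run up to 7) through -0.40 (8 to 10) and -0.55 (11 to 13) to -0.71 (14 or more), and the points scatter widely around them, with CDC45 and CDC73 to the upper right.

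Cyclin D1, which answers growth signals, fell, while its relative cyclin D3 did not pass the test. CCND1 gave 113 to 569 CPM in the 8 DMSO libraries (median 315), 30.5 for NCI-H1650, 59.8 for NCI-H520, 364 for Hs 936.T and 115 for A375 at 0.3 µM, and 73.6 for NCI-H1650, 44.9 for NCI-H520, 215 for Hs 936.T and 198 for A375 at 3 µM. In each line both RocA libraries lay below both DMSO libraries, and the melanoma lines stayed above the lung lines under every treatment. The log2 fold change was -1.25 ± 0.18 at 0.3 µM and -1.38 ± 0.19 at 3 µM (± SE, adjusted p = 1.5e-06 and 1.2e-06, edgeR's quasi-likelihood test, Benjamini-Hochberg adjusted). Each SE of a dose change comes from the fit over all 16 libraries, DMSO replicates included, and is not a spread over the 4 lines alone. Lines with more counts weigh more in the fitted change. Without the 0.3 µM library of Hs 936.T the change at 0.3 µM became -1.88. CCND3 ran from 34.9 to 94.4 CPM with DMSO (median 52.3), from 44 to 85.4 at 0.3 µM and from 26.4 to 55.2 at 3 µM. Its log2 fold changes were 0.18 ± 0.18 at 0.3 µM and -0.43 ± 0.23 at 3 µM, on both sides of 0, and without the 3 µM library of Hs 936.T the second became -0.74 and passed. CCND2 had next to no footprints in any library.

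Both E-type cyclins were read thinly. CCNE2 ran from 23.8 to 57.8 CPM with DMSO (median 35), from 11.2 to 19 at 0.3 µM and from 18.4 to 33.3 at 3 µM. It was lower at both doses, by a log2 fold change of -1.48 ± 0.25 at 0.3 µM and -0.80 ± 0.25 at 3 µM, and the call at 3 µM ended without the 3 µM library of Hs 936.T (-0.64). CCNE1 ran from 3.94 to 22.9 CPM with DMSO (median 7.33), from 1.86 to 15.2 at 0.3 µM and from 0 to 9.2 at 3 µM. Its log2 fold changes were -1.12 ± 0.49 at 0.3 µM and -1.19 ± 0.60 at 3 µM, and only the first passed. That call ended without any of 5 single libraries, with values from -1.09 to -0.97, and the change at 3 µM passed without the NCI-H520 3 µM library (-2.12) or DMSO replicate 2 (-1.33).

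Cyclin A2, which serves S phase and entry into mitosis, fell at both doses and cyclin B1 fell slightly, but cyclin B2 rose. CCNA2 gave 54.5 to 136 CPM in the 8 DMSO libraries (median 94.5), 22.9 for NCI-H1650, 99.7 for NCI-H520, 32.7 for Hs 936.T and 67 for A375 at 0.3 µM, and 18.4 for NCI-H1650, 58.1 for NCI-H520, 10.2 for Hs 936.T and 33.3 for A375 at 3 µM. In all 4 lines its order was DMSO, 0.3 µM, 3 µM from high to low, with log2 fold changes of -0.76 ± 0.16 at 0.3 µM and -1.67 ± 0.21 at 3 µM (adjusted p = 0.00011 and 9.3e-09, edgeR's quasi-likelihood test, Benjamini-Hochberg adjusted). CCNB1 ran from 290 to 464 CPM with DMSO (median 353), from 194 to 361 at 0.3 µM and from 269 to 325 at 3 µM. CCNB2 ran from 82.5 to 319 CPM with DMSO (median 136), from 130 to 413 at 0.3 µM and from 120 to 462 at 3 µM. Cyclin B1 stayed below and cyclin B2 above both DMSO libraries of its line in all 4 lines at both doses. The log2 fold changes were -0.46 ± 0.12 at 0.3 µM and -0.37 ± 0.12 at 3 µM for CCNB1 and 0.29 ± 0.11 at 0.3 µM and 0.43 ± 0.12 at 3 µM for CCNB2. The call of CCNB1 at 3 µM ended without the A375 3 µM library (-0.31). That of CCNB2 at 0.3 µM was lost in 12 of 28 other analyses tried, among them without NCI-H1650 DMSO replicate 1 (0.23) or 2 (0.21) or the 0.3 µM library of NCI-H1650 (0.25) or NCI-H520 (0.26), while its rise at 3 µM held in all 28. Cyclin G1, a target gene of p53, fell most at 3 µM among the cyclins taken by symbol. CCNG1 ran from 32.1 to 172 CPM with DMSO (median 61.9), from 7.45 to 68.8 at 0.3 µM and from 0 to 24.6 at 3 µM. The log2 fold change was -1.52 ± 0.21 at 0.3 µM and -2.66 ± 0.29 at 3 µM, and no footprint was counted in NCI-H1650 at 3 µM, which allows up to 27.6 CPM (3 counts). CCNG2, CCNA1, CCNB3 and CCNI2 either failed the test or had too few counts for it.

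All 4 cell cycle CDKs with enough counts fell at both doses, CDK6 the most. Over all genes tested 32.2% fell at 0.3 µM and 31.9% at 3 µM. CDK6 gave 26.3 to 100 CPM in the 8 DMSO libraries (median 41.9), 7.62 for NCI-H1650, 11.4 for NCI-H520, 13.5 for Hs 936.T and 9.31 for A375 at 0.3 µM, and 18.4 for NCI-H1650, 10.6 for NCI-H520, 14.3 for Hs 936.T and 10.4 for A375 at 3 µM. The RocA and DMSO values of CDK6 do not overlap, even across lines, and with RocA the lines lay between 7.62 and 18.4 CPM although A375 had the most with DMSO. The log2 fold change was -2.16 ± 0.28 at 0.3 µM and -2.17 ± 0.32 at 3 µM (adjusted p = 2e-08 and 2e-07, edgeR's quasi-likelihood test, Benjamini-Hochberg adjusted), and -2.75 at 0.3 µM without that library of Hs 936.T. The longest run of A and G in the UTR measured 19 bases in CDK6, 7 in CDK4, 6 in CDK1 and 6 in CDK2. Its part in these falls was not tested. CDK4, the partner kinase of CDK6 in G1, fell less. CDK4 gave 88.9 to 208 CPM in the 8 DMSO libraries (median 152), 41.9 for NCI-H1650, 99.7 for NCI-H520, 110 for Hs 936.T and 112 for A375 at 0.3 µM, and 46 for NCI-H1650, 92.5 for NCI-H520, 71.7 for Hs 936.T and 115 for A375 at 3 µM. Each RocA library lay below both DMSO libraries of its line, and the log2 fold change was -0.69 ± 0.13 at 0.3 µM and -0.90 ± 0.14 at 3 µM. The direction depended on the transcript entry counted. A shorter CDK4 entry of 65 codons stood at 70.8 and 81.2 CPM in A375 at 0.3 and 3 µM, against 27.4 and 39.5 with DMSO, while one of 198 codons stood at 33.5 and 27.1, against 150 and 141. CDK1 ran from 77.9 to 389 CPM with DMSO (median 306), from 57.1 to 191 at 0.3 µM and from 27.6 to 206 at 3 µM. CDK1, the mitotic kinase, changed by -1.15 ± 0.13 at 0.3 µM and -1.08 ± 0.14 at 3 µM (log2). CDK2 was dominated by 1 line. CDK2 gave 50.7 to 899 CPM in the 8 DMSO libraries (median 99.2), 7.62 for NCI-H1650, 31.3 for NCI-H520, 473 for Hs 936.T and 37.2 for A375 at 0.3 µM, and 55.2 for NCI-H1650, 42.3 for NCI-H520, 441 for Hs 936.T and 56.2 for A375 at 3 µM. It had log2 fold changes of -1.16 ± 0.16 at 0.3 µM and -0.98 ± 0.17 at 3 µM, and NCI-H1650 at 3 µM, with 55.2 CPM against 50.7 and 51.3 with DMSO, was the one library that did not lie below its DMSO libraries. CDK3, which completes the group, had almost no counts.

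**Figure D3:**
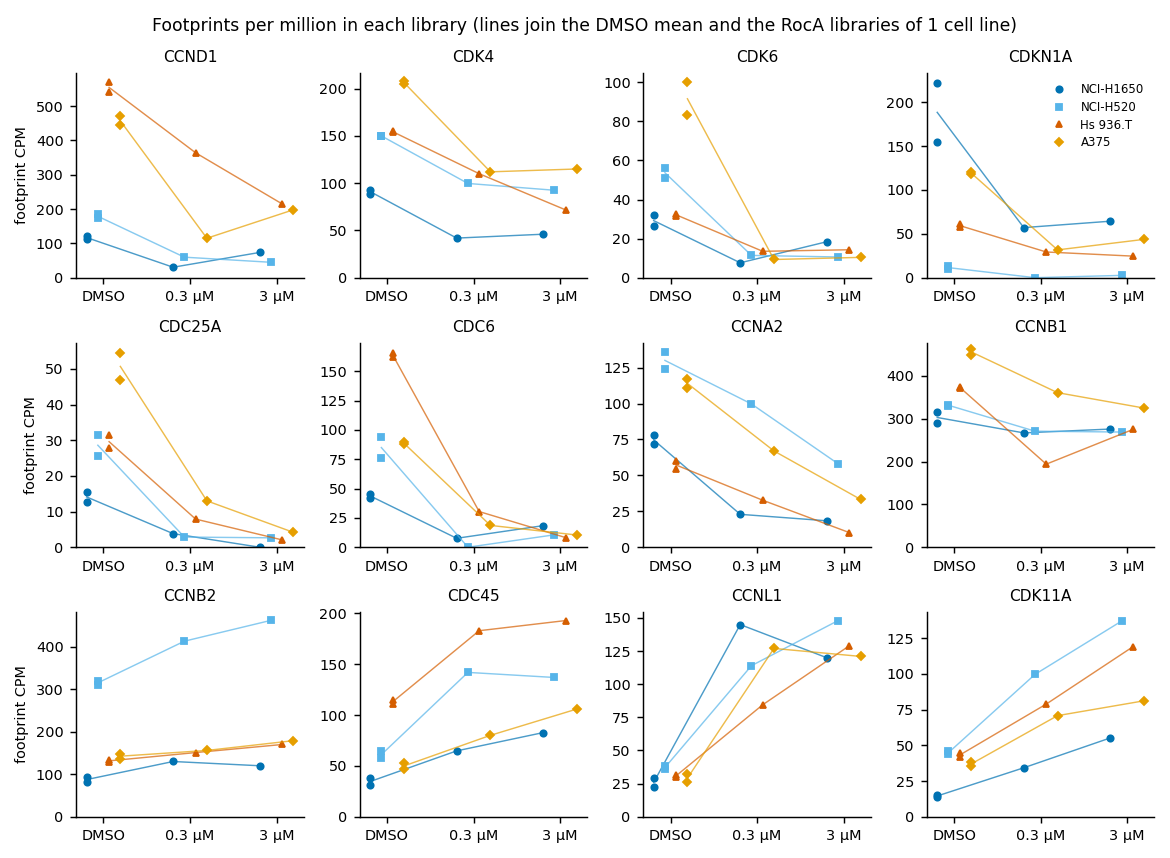
Footprint CPM (y axis) of 12 genes in each of the 16 libraries with DMSO, 0.3 µM and 3 µM RocA; symbols and colours mark the 4 lines, and lines join each line's DMSO mean to its RocA libraries. CCND1, CDK6, CDC6 and CCNA2 fall in every line, CCNB1 stays between 194 and 361 CPM under RocA, and CCNB2, CDC45, CCNL1 and CDK11A rise in every line.

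The CDKN genes, which encode brakes on these kinases, fell along with them: 4 of 5 tested fell at 3 µM, 3 of 5 at 0.3 µM, and 0 rose. Among all genes tested 31.9% fell and 25% rose at 3 µM, and 32.2% fell and 27.5% rose at 0.3 µM. CDKN1A encodes p21, the inhibitor induced by p53. CDKN1A gave 9.52 to 222 CPM in the 8 DMSO libraries (median 89.5), 57.1 for NCI-H1650, 0 for NCI-H520, 29.3 for Hs 936.T and 31.7 for A375 at 0.3 µM, and 64.4 for NCI-H1650, 2.64 for NCI-H520, 24.6 for Hs 936.T and 43.7 for A375 at 3 µM. Both RocA libraries lay below both DMSO libraries in each line, with log2 fold changes of -1.56 ± 0.20 at 0.3 µM and -1.43 ± 0.23 at 3 µM (adjusted p = 1.5e-08 and 1.6e-06, edgeR's quasi-likelihood test, Benjamini-Hochberg adjusted). In NCI-H520 this rests on 0 counts at 0.3 µM, at least 1.34-fold lower against 3 counts, and on 1 count at 3 µM. CDKN1B ran from 21.3 to 46.2 CPM with DMSO (median 30.5), from 9.31 to 18 at 0.3 µM and from 0 to 16.7 at 3 µM. This gene encodes p27, and its log2 fold changes were -1.12 ± 0.27 at 0.3 µM and -1.51 ± 0.34 at 3 µM. CDKN2A, which encodes p16 and, in another frame, ARF, had counts mainly in NCI-H520 and Hs 936.T. It stood at 71.2 CPM in NCI-H520 and 59.7 in Hs 936.T at 0.3 µM and at 58.1 and 51.2 at 3 µM, against 116 to 129 and 102 to 107 with DMSO. NCI-H1650 had 3.81 CPM at 0.3 µM and 0 counts at 3 µM, and A375 had 5.59 and 2.08 CPM, on at most 3 counts a library. CDKN2A changed by -0.71 ± 0.20 at 0.3 µM and -1.02 ± 0.23 at 3 µM (log2). The call at 0.3 µM ended with DESeq2 in place of edgeR (-0.54) and without the Hs 936.T library (-0.57). These values are those of an entry of 147 codons. Another CDKN2A entry, of 123 codons, stood at 122 CPM in NCI-H520 and 77.8 in Hs 936.T at 0.3 µM, against 131 and 128 in NCI-H520 and 76.5 and 78.3 in Hs 936.T with DMSO. Reads of its 2 frames were counted on overlapping entries and cannot be separated, and CDKN2B next to it has similar sequence, so some reads may be shared. CDKN2B was lower at 3 µM only, at -1.84 ± 0.62, a call that ended without the NCI-H520 library (-1.32) and became -2.74 without the Hs 936.T library. CDKN3, a phosphatase named with this family, passed at neither dose.

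The CDC25 phosphatases fell at both doses, and CDC25A had the largest fall of all 78 genes at 3 µM. CDC25A gave 12.8 to 54.6 CPM in the 8 DMSO libraries (median 29.6), 3.81 for NCI-H1650, 2.85 for NCI-H520, 7.89 for Hs 936.T and 13 for A375 at 0.3 µM, and 0 for NCI-H1650, 2.64 for NCI-H520, 2.05 for Hs 936.T and 4.17 for A375 at 3 µM. At 0.3 µM each line lay below both its DMSO libraries, and at 3 µM so did NCI-H520, Hs 936.T and A375. NCI-H1650 had 0 counts at 3 µM, which allows up to 27.6 CPM (3 counts) and so shows no fall there. The log2 fold change was -2.06 ± 0.29 at 0.3 µM and -3.64 ± 0.44 at 3 µM (adjusted p = 1e-07 and 3.5e-09, edgeR's quasi-likelihood test, Benjamini-Hochberg adjusted), on 0 to 2 counts per library at 3 µM. CDC25B ran from 21.9 to 114 CPM with DMSO (median 80), from 14.2 to 72.6 at 0.3 µM and from 13.2 to 43.7 at 3 µM. CDC14A, of a related phosphatase family, passed at neither dose. CDC25B changed by -0.64 ± 0.16 at 0.3 µM and -1.53 ± 0.22 at 3 µM and CDC25C by -1.12 ± 0.29 at 0.3 µM and -1.25 ± 0.35 at 3 µM (log2). The call of CDC25C at 3 µM ended without the Hs 936.T library (-0.83).

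The 3 replication genes did not move together: CDC6 fell, CDC45 rose and CDC7 did not pass. CDC6 loads the MCM helicase onto replication origins. CDC6 gave 41.7 to 166 CPM in the 8 DMSO libraries (median 88.7), 7.62 for NCI-H1650, 0 for NCI-H520, 30.4 for Hs 936.T and 18.6 for A375 at 0.3 µM, and 18.4 for NCI-H1650, 10.6 for NCI-H520, 8.2 for Hs 936.T and 10.4 for A375 at 3 µM. All its RocA values lay below all its DMSO values, and the log2 fold change was -2.60 ± 0.23 at 0.3 µM and -3.38 ± 0.30 at 3 µM (adjusted p = 1.3e-12 and 1.7e-12, edgeR's quasi-likelihood test, Benjamini-Hochberg adjusted). CDC45, which joins MCM proteins in the working helicase, rose. CDC45 gave 30.8 to 115 CPM in the 8 DMSO libraries (median 55.2), 64.8 for NCI-H1650, 142 for NCI-H520, 183 for Hs 936.T and 80.1 for A375 at 0.3 µM, and 82.8 for NCI-H1650, 137 for NCI-H520, 193 for Hs 936.T and 106 for A375 at 3 µM. In every line both RocA libraries lay above both DMSO libraries, with log2 fold changes of 0.83 ± 0.13 at 0.3 µM and 0.99 ± 0.14 at 3 µM (adjusted p = 1.1e-06 and 1.6e-07 in the same edgeR test, Benjamini-Hochberg adjusted). CDC7, the kinase that fires origins, changed by 0.28 ± 0.24 at 0.3 µM and -0.17 ± 0.30 at 3 µM (log2) and passed at neither dose. CDC6 and CDC45 both had a run of 13 purines in the UTR, with UTR lengths of 471 and 143 bases.

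Subunits of the anaphase promoting complex moved in opposite directions. Of 15 tested genes in this group 7 fell at both doses, 2 rose at 0.3 µM and 4 rose at 3 µM. Among all genes tested 32.2% fell and 27.5% rose at 0.3 µM, and 31.9% fell and 25% rose at 3 µM. Whether the group differs from these shares was not tested. ANAPC1, the large scaffold subunit, fell. ANAPC1 gave 35 to 101 CPM in the 8 DMSO libraries (median 67.1), 11.4 for NCI-H1650, 14.2 for NCI-H520, 46.2 for Hs 936.T and 5.59 for A375 at 0.3 µM, and 0 for NCI-H1650, 13.2 for NCI-H520, 26.6 for Hs 936.T and 12.5 for A375 at 3 µM. Its log2 fold change was -1.60 ± 0.23 at 0.3 µM and -2.13 ± 0.29 at 3 µM, and -2.51 at 0.3 µM without the Hs 936.T library. CDC27 ran from 73.3 to 140 CPM with DMSO (median 105), from 22.9 to 72.1 at 0.3 µM and from 18.4 to 53.3 at 3 µM. CDC27, a scaffold subunit with tetratricopeptide repeats, changed by -1.17 ± 0.15 at 0.3 µM and -1.43 ± 0.18 at 3 µM and CDC16, a subunit of the same kind, by -1.16 ± 0.19 at 0.3 µM and -1.43 ± 0.22 at 3 µM. CDC16 is read mostly in Hs 936.T, and without that line's RocA library its changes were -2.01 at 0.3 µM and -2.21 at 3 µM. CDC23, also a tetratricopeptide subunit, rose. CDC23 gave 60.5 to 137 CPM in the 8 DMSO libraries (median 74.7), 160 for NCI-H1650, 251 for NCI-H520, 124 for Hs 936.T and 129 for A375 at 0.3 µM, and 101 for NCI-H1650, 301 for NCI-H520, 105 for Hs 936.T and 123 for A375 at 3 µM. CDC23 lay above both DMSO libraries of its line in all 4 lines at both doses, by a log2 fold change of 0.90 ± 0.13 at 0.3 µM and 0.86 ± 0.14 at 3 µM (adjusted p = 1.8e-07 and 2.9e-06, edgeR's quasi-likelihood test, Benjamini-Hochberg adjusted).

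Among the small subunits, ANAPC10, ANAPC11 and ANAPC13 fell at both doses, while ANAPC15, ANAPC16 and CDC26 were called lower at neither. The log2 fold changes were -1.75 ± 0.32 at 0.3 µM and -1.09 ± 0.32 at 3 µM for ANAPC10, -0.91 ± 0.20 at 0.3 µM and -0.78 ± 0.22 at 3 µM for ANAPC11 and -1.20 ± 0.30 at 0.3 µM and -0.88 ± 0.33 at 3 µM for ANAPC13. At 3 µM the calls of ANAPC10 (-0.89) and ANAPC13 (-0.98) ended without the A375 library, and those of ANAPC13 also without Hs 936.T at either dose (-0.76 at 0.3 µM, -0.74 at 3 µM). ANAPC5 rose at 0.3 µM only, by 0.75 ± 0.16 (log2). ANAPC2, the cullin subunit, rose at 3 µM by 0.73 ± 0.22, ANAPC7, another tetratricopeptide subunit, by 0.50 ± 0.15 and ANAPC15 by 0.85 ± 0.36. These 3 calls each rested on single libraries: without the 3 µM library of A375 ANAPC2 gave 0.49, and without that of NCI-H520 ANAPC7 gave 0.19 and ANAPC15 gave 0.46. The ANAPC15 call was also lost without any of 6 other libraries, with values from 0.64 to 0.98. CDC20 gave 152 to 649 CPM in the 8 DMSO libraries (median 289), 110 for NCI-H1650, 487 for NCI-H520, 90.2 for Hs 936.T and 238 for A375 at 0.3 µM, and 55.2 for NCI-H1650, 396 for NCI-H520, 86.1 for Hs 936.T and 219 for A375 at 3 µM. CDC20, the activator, lay below its DMSO libraries in every line, with log2 fold changes of -0.63 ± 0.12 at 0.3 µM and -0.84 ± 0.13 at 3 µM. ANAPC4, ANAPC16 and CDC26 passed at neither dose. Under DMSO, CPM per 1000 codons, a level that allows for length, ran from 13.7 to 51.4 over the lines for ANAPC1 and ANAPC4. For ANAPC11, the RING subunit, it ran from 766 to 1121. Length alone did not give the order: CDC27, longer than ANAPC4, ran from 95.6 to 170, and the short CDC26 from 115 to 265.

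**Figure D4:**
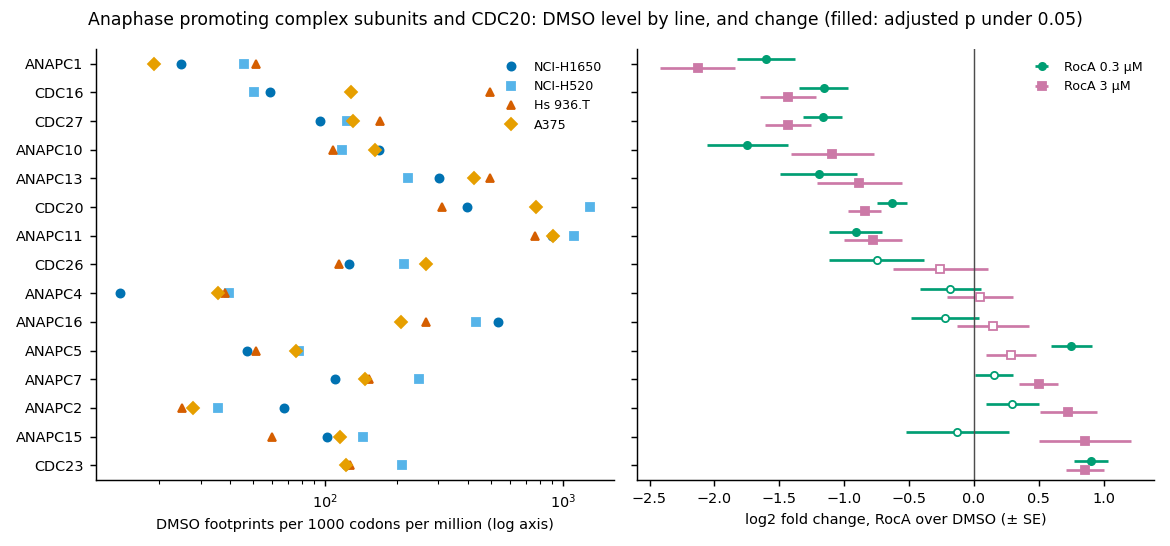
Anaphase promoting complex genes and CDC20: left, DMSO footprint CPM per 1000 codons (log axis) in each line, mean of 2 libraries; right, log2 fold change with SE at 0.3 µM (circles) and 3 µM (squares) over DMSO, filled where the test was passed. ANAPC1 lies furthest to the left, at -2.13 with 3 µM, and CDC23 furthest to the right, at 0.90 with 0.3 µM.

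Of the 4 transcription and splicing cyclins taken by symbol, those called rose, while CCNK, a transcription cyclin outside the symbol rule, fell. CCNL1 and CCNL2 encode cyclin L, the partner of CDK11 in splicing. CCNL1 gave 22.6 to 38.1 CPM in the 8 DMSO libraries (median 30.9), 145 for NCI-H1650, 114 for NCI-H520, 84.5 for Hs 936.T and 127 for A375 at 0.3 µM, and 120 for NCI-H1650, 148 for NCI-H520, 129 for Hs 936.T and 121 for A375 at 3 µM. Every RocA value of CCNL1 lay above every DMSO value, and its log2 fold change of 1.85 ± 0.15 at 0.3 µM and 2.06 ± 0.16 at 3 µM was the largest rise of the 78 genes at 3 µM (adjusted p = 1.4e-13 and 6.4e-14, edgeR's quasi-likelihood test, Benjamini-Hochberg adjusted). CCNL2 gave 6.33 to 20.5 CPM in the 8 DMSO libraries (median 9.41), 38.1 for NCI-H1650, 74.1 for NCI-H520, 16.9 for Hs 936.T and 48.4 for A375 at 0.3 µM, and 36.8 for NCI-H1650, 23.8 for NCI-H520, 24.6 for Hs 936.T and 35.4 for A375 at 3 µM. CCNL2 lay above both DMSO libraries of its line throughout, with log2 fold changes of 1.89 ± 0.24 at 0.3 µM and 1.35 ± 0.30 at 3 µM. CCNT1 and CCNT2, partners of CDK9 in transcription elongation, had positive values at both doses, and 1 call was made, CCNT2 at 3 µM (0.69 ± 0.26), which ended without the Hs 936.T library (0.63).

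Among the transcriptional CDKs, 5 of 7 tested fell and 2 rose, at both doses. Over all genes tested 32.2% fell and 27.5% rose at 0.3 µM, and 31.9% fell and 25% rose at 3 µM. The 2 CDKs that rose are CDK11A and CDK11B, near-identical neighbours on chromosome 1 whose reads the counting could not fully separate. They count as 1 observation. CDK11A gave 13.7 to 45.7 CPM in the 8 DMSO libraries (median 39.9), 34.3 for NCI-H1650, 99.7 for NCI-H520, 78.9 for Hs 936.T and 70.8 for A375 at 0.3 µM, and 55.2 for NCI-H1650, 137 for NCI-H520, 119 for Hs 936.T and 81.2 for A375 at 3 µM. All 4 lines were higher at each dose, and the log2 fold changes were 0.97 ± 0.15 at 0.3 µM and 1.43 ± 0.15 at 3 µM for CDK11A and 0.92 ± 0.14 at 0.3 µM and 1.31 ± 0.15 at 3 µM for CDK11B. The size of the rise depended on the CDK11A entry counted: at 0.3 and 3 µM in NCI-H520 one of 737 codons stood at 65.5 and 89.8 CPM, against 42.9 and 42.5 with DMSO, and one of 27 codons at 31.3 and 44.9, against 1.9 and 1.58. CDK12 and CDK13, which phosphorylate RNA polymerase II with cyclin K, fell. CDK13 gave 22.5 to 83.3 CPM in the 8 DMSO libraries (median 33.7), 3.81 for NCI-H1650, 2.85 for NCI-H520, 14.7 for Hs 936.T and 9.31 for A375 at 0.3 µM, and 0 for NCI-H1650, 10.6 for NCI-H520, 10.2 for Hs 936.T and 8.33 for A375 at 3 µM. CDK13 changed by -1.85 ± 0.32 at 0.3 µM and -1.93 ± 0.39 at 3 µM and CDK12 by -1.51 ± 0.26 at 0.3 µM and -1.52 ± 0.29 at 3 µM (log2). Without the 0.3 µM library of Hs 936.T these changes at 0.3 µM became -2.85 and -2.14. CDK8, the Mediator kinase, was low, with 5.5 to 27.6 CPM under DMSO and 0 counts at both doses in NCI-H1650 and A375. In NCI-H1650 3 counts equal 11.4 CPM at 0.3 µM and 27.6 at 3 µM, above the DMSO mean of 7.73. The 0 counts thus show no fall there, and in A375 they give at least 2.32-fold lower at 0.3 µM and 2.07-fold at 3 µM. CDK8 changed by -2.38 ± 0.48 at 0.3 µM and -2.29 ± 0.53 at 3 µM, and by -3.74 at 3 µM without the NCI-H520 3 µM library. CDK7, the CDK-activating kinase, changed by -1.01 ± 0.19 at 0.3 µM and -1.45 ± 0.24 at 3 µM and CDK9 by -0.73 ± 0.21 at 0.3 µM and -0.75 ± 0.24 at 3 µM, and all RocA values of each lay below all DMSO values. The calls of CDK9 ended without the A375 library of the dose (-0.53 at 0.3 µM, -0.44 at 3 µM).

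The remaining CDKs were mixed. CDK16 gave 7.09 to 22.9 CPM in the 8 DMSO libraries (median 18), 68.6 for NCI-H1650, 17.1 for NCI-H520, 44 for Hs 936.T and 59.6 for A375 at 0.3 µM, and 36.8 for NCI-H1650, 10.6 for NCI-H520, 43 for Hs 936.T and 33.3 for A375 at 3 µM. CDK16 rose, by a log2 fold change of 1.41 ± 0.20 at 0.3 µM and 0.89 ± 0.27 at 3 µM, and its call at 3 µM ended without the Hs 936.T library (0.62). Its relative CDK17 fell. CDK17 gave 17.1 to 64.6 CPM in the 8 DMSO libraries (median 23.7), 0 for NCI-H1650, 0 for NCI-H520, 29.3 for Hs 936.T and 1.86 for A375 at 0.3 µM, and 0 for NCI-H1650, 2.64 for NCI-H520, 18.4 for Hs 936.T and 2.08 for A375 at 3 µM. Its log2 fold changes were -1.60 ± 0.29 at 0.3 µM and -2.17 ± 0.40 at 3 µM, but Hs 936.T held most of the counts, and without its library they were -4.46 at 0.3 µM and -3.17 at 3 µM. The 0 counts of CDK17 in NCI-H1650 at 3 µM allow up to 27.6 CPM (3 counts), against a DMSO mean of 28.2. CDK14 was lower at 0.3 µM only (-1.41 ± 0.53), a call that ended without the Hs 936.T library (-0.96) and became -2.64 without the A375 library. CDK5, CDK10 and CDK18 passed at neither dose.

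CDC42 is a GTPase of cell polarity, first named from a yeast division mutant. Of CDC42 and its partners, 5 of 7 tested fell at 0.3 µM and 6 of 7 at 3 µM, and 0 rose. Over all genes tested 32.2% fell and 27.5% rose at 0.3 µM, and 31.9% fell and 25% rose at 3 µM. CDC42 gave 260 to 449 CPM in the 8 DMSO libraries (median 341), 209 for NCI-H1650, 140 for NCI-H520, 224 for Hs 936.T and 227 for A375 at 0.3 µM, and 156 for NCI-H1650, 188 for NCI-H520, 133 for Hs 936.T and 123 for A375 at 3 µM. All RocA values lay below all DMSO values, and the log2 fold change was -0.72 ± 0.14 at 0.3 µM and -1.15 ± 0.16 at 3 µM. CDC42SE1, a small effector, fell most. CDC42SE1 gave 41.9 to 57.8 CPM in the 8 DMSO libraries (median 48.3), 11.4 for NCI-H1650, 8.54 for NCI-H520, 4.51 for Hs 936.T and 3.72 for A375 at 0.3 µM, and 9.2 for NCI-H1650, 2.64 for NCI-H520, 4.1 for Hs 936.T and 8.33 for A375 at 3 µM. It was nearly level across lines under DMSO and low in all of them under RocA, with log2 fold changes of -3.05 ± 0.30 at 0.3 µM and -3.18 ± 0.35 at 3 µM (adjusted p = 1.6e-11 and 4.2e-10, edgeR's quasi-likelihood test, Benjamini-Hochberg adjusted). The RocA values of CDC42SE1 rest on 2 to 4 counts per library at 0.3 µM and 1 to 4 at 3 µM. Its paralog CDC42SE2 had too few counts for the test. It had 1 count over the 4 libraries at 0.3 µM where the DMSO level would give 13.9, a 13.9-fold lower level with a 95% counting interval of 2.49 to 549. At 3 µM it had 0 counts where 9.67 would be expected, so it was at least 3.22-fold lower (3 counts over the group; both cover counting error only). The effector CDC42EP4 and the kinase CDC42BPA fell at both doses, CDC42EP4 by a log2 fold change of -1.35 ± 0.34 at 0.3 µM and -1.59 ± 0.41 at 3 µM and CDC42BPA by one of -1.58 ± 0.46 at 0.3 µM and -1.16 ± 0.48 at 3 µM. The calls of both at 3 µM ended without the NCI-H520 3 µM library (-1.20 for CDC42EP4 and -1.10 for CDC42BPA). CDC42BPA was also lost at 3 µM without any of 5 other single libraries (from -1.14 to -0.53), and without the Hs 936.T library of the dose it gave -2.21 at 0.3 µM and -1.91 at 3 µM. CDC42BPB was lower at 3 µM only (-0.83 ± 0.33), a call that ended without NCI-H520 (-0.69) or Hs 936.T (-0.64) at that dose, and CDC42BPG passed at neither dose.

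Genes that carry a CDC name for other work split too. CDC40, a splicing factor, rose. CDC40 gave 15.6 to 53.5 CPM in the 8 DMSO libraries (median 33.8), 64.8 for NCI-H1650, 128 for NCI-H520, 125 for Hs 936.T and 83.8 for A375 at 0.3 µM, and 46 for NCI-H1650, 119 for NCI-H520, 131 for Hs 936.T and 83.3 for A375 at 3 µM. The log2 fold change of CDC40 was 1.44 ± 0.14 at 0.3 µM and 1.40 ± 0.16 at 3 µM (adjusted p = 1.9e-11 and 6.2e-10, edgeR's quasi-likelihood test, Benjamini-Hochberg adjusted), and each line lay above its DMSO libraries. CDC37, which hands kinases to the chaperone HSP90, changed by 0.34 ± 0.11 at 0.3 µM and 0.64 ± 0.11 at 3 µM, and the first of these calls ended without the 0.3 µM library of NCI-H520 (0.27) or A375 (0.28). CDC123, an assembly factor of the initiation factor eIF2, fell by 1.11 ± 0.15 at 0.3 µM and 1.17 ± 0.16 at 3 µM (log2), and CDC5L, a splicing factor like CDC40, by 0.77 ± 0.17 at 0.3 µM and 0.75 ± 0.19 at 3 µM. CDC34, CDC37L1 and CDC73 passed at neither dose. Of proteins named after a cyclin or CDK, CDKN2AIPNL rose by 1.56 ± 0.15 at 0.3 µM and 1.30 ± 0.18 at 3 µM, and it ran from 18.3 to 46.7 CPM with DMSO (median 25.3), from 57.1 to 134 at 0.3 µM and from 46 to 108 at 3 µM. CDK5RAP2, a centrosome protein, fell, by 0.51 ± 0.16 at 0.3 µM and 0.70 ± 0.18 at 3 µM. CDK2AP2, CDK5RAP3 and CDKN2AIP passed at neither dose. CDK5RAP1 was higher at 3 µM (0.47 ± 0.19), a call lost without DMSO replicate 2 of A375 (0.43) or the 3 µM library of NCI-H520 (0.42) or A375 (0.27).

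Other cell cycle genes, 76 listed from outside the symbol rule, moved in both directions as well. The list includes further cyclins and the CDCA genes, which share a name, so it is not one by function alone. Of 72 tested, 29 fell (40.3%, against 32.2% of all genes tested) and 13 rose (18.1%, against 27.5%) at 0.3 µM. At 3 µM 24 fell (33.3%, against 31.9%) and 17 rose (23.6%, against 25%), near the background, with medians over the 2 doses of -0.26 and -0.31 (log2). ORC1 and ORC2, of the complex that CDC6 joins at origins, fell by 2.03 ± 0.29 and 1.26 ± 0.21 at 0.3 µM and by 1.88 ± 0.32 and 1.66 ± 0.26 at 3 µM. CDT1, which loads MCM proteins with CDC6, rose by 1.12 ± 0.14 at 0.3 µM and 0.87 ± 0.15 at 3 µM. CCNH, the cyclin of CDK7, rose by 1.15 ± 0.13 and 0.69 ± 0.15 although CDK7 fell, and CCNK, the cyclin of CDK12 and CDK13, fell by 1.59 ± 0.25 and 1.26 ± 0.27 as they did. These values are log2 fold changes ± SE that passed the test, and these genes were picked from the list after their values were seen.

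Few differences between the 2 doses passed. Setting 3 µM against 0.3 µM, 1 of the 78 genes passed (1.28%, against 3.32% of all genes tested). CDK2AP1, a CDK2-binding protein, was lower at 3 µM than at 0.3 µM by a log2 difference of -0.99 ± 0.27 (adjusted p = 0.029, edgeR's quasi-likelihood test, Benjamini-Hochberg adjusted). CDK2AP1 gave 18.1 to 53 CPM in the 8 DMSO libraries (median 33.6), 60.9 for NCI-H1650, 45.6 for NCI-H520, 49.6 for Hs 936.T and 130 for A375 at 0.3 µM, and 46 for NCI-H1650, 7.93 for NCI-H520, 34.8 for Hs 936.T and 58.3 for A375 at 3 µM. It rose over DMSO at 0.3 µM (1.05 ± 0.18) and not at 3 µM (0.05 ± 0.25). CDK2AP1 lost this call without the 3 µM library of NCI-H520, Hs 936.T or A375 or the 0.3 µM library of A375. The count of genes passing was 0 without the 3 µM library of Hs 936.T or A375 and 2 without any of 4 other libraries. CDC25A differed between doses by -1.57 ± 0.71 (adjusted p = 0.25) and CDC25B by -0.90 ± 0.28 (adjusted p = 0.067) in the same edgeR test, Benjamini-Hochberg adjusted, which did not pass.

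The response to RocA was tested for differences between lines with 1 response per line shared by both doses, and 2 of 78 genes passed (2.56%, against 2.82% of all genes tested). ANAPC16, a small subunit of the anaphase promoting complex, was one (adjusted p = 0.024, edgeR's quasi-likelihood test, Benjamini-Hochberg adjusted). ANAPC16 gave 19.7 to 54.3 CPM in the 8 DMSO libraries (median 35.2), 41.9 for NCI-H1650, 62.7 for NCI-H520, 11.3 for Hs 936.T and 24.2 for A375 at 0.3 µM, and 55.2 for NCI-H1650, 95.1 for NCI-H520, 14.3 for Hs 936.T and 10.4 for A375 at 3 µM. It lay above its DMSO libraries in NCI-H520 at both doses, below them in Hs 936.T at both, and on both sides of them in A375. CDC42EP3, a CDC42 effector, was the other (adjusted p = 0.032 in the same edgeR test, Benjamini-Hochberg adjusted). CDC42EP3 gave 15.2 to 178 CPM in the 8 DMSO libraries (median 52.1), 15.2 for NCI-H1650, 5.7 for NCI-H520, 130 for Hs 936.T and 31.7 for A375 at 0.3 µM, and 18.4 for NCI-H1650, 0 for NCI-H520, 113 for Hs 936.T and 18.7 for A375 at 3 µM. Its RocA libraries lay below both DMSO libraries in every line, least far in Hs 936.T at 0.3 µM, and NCI-H520 had no count at 3 µM, at least 2.4-fold lower against 3 counts. Its log2 fold change over all lines was -0.69 ± 0.26 at 0.3 µM and -1.07 ± 0.31 at 3 µM, and without the Hs 936.T library of the dose -1.37 and -2.19. Its calls ended without the A375 library of the dose (-0.47 at 0.3 µM, -0.71 at 3 µM), and at 0.3 µM also without that of NCI-H1650 (-0.67). The Hs 936.T level of CDC42EP3 is the highest, and in NCI-H520 the melanocyte genes stood at 0.693 and 1.61% of the Hs 936.T level with RocA, against 3.27 and 7.81% with DMSO. Their part in the result was not tested. The third smallest p was that of CDC16 (adjusted p = 0.073 in this edgeR test, Benjamini-Hochberg adjusted), which was not called. Without 1 library the count of called genes ran from 0 to 4, and it was 0 without the Hs 936.T 0.3 µM library or the NCI-H520 3 µM library and 4 without the NCI-H520 0.3 µM library or the Hs 936.T 3 µM library. ANAPC16 and CDC42EP3 both lost the call without the Hs 936.T 0.3 µM or the NCI-H520 3 µM library, and 1 of the 2 lost it without any of 8 other libraries. The count was 1 without NCI-H520 DMSO replicate 2, Hs 936.T DMSO replicate 1, or the 0.3 µM library of NCI-H1650 or A375.

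With DMSO alone the lines differed in most of these genes. Over the 8 DMSO libraries 83 of 88 tested genes differed between lines (94.3%, against 91.5% of all 11840 genes tested). The lung lines against the melanoma lines gave 56 called genes (63.6%, against 60.3% of all), 21 higher (23.9%, against 30% of all) and 35 lower (39.8%, against 30.3%). NCI-H1650 against NCI-H520 gave 55 (62.5%, against 59.6%), 17 higher (19.3%, against 29.5%) and 38 lower (43.2%, against 30.1%), and Hs 936.T against A375 gave 60 (68.2%, against 64.2%), 24 higher (27.3%, against 31.4%) and 36 lower (40.9%, against 32.8%). CCNL1 and CDC42SE1 were among the few that did not pass.

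Cyclin D1 and CDK2 differed between the lines, the first between the 2 lung and the 2 melanoma lines and the second in 1 line. CCND1 stood at 121 and 113 in NCI-H1650, 173 and 185 in NCI-H520, 540 and 569 in Hs 936.T, and 470 and 444 in A375. The lung lines were below the melanoma lines by a log2 difference of -1.82 ± 0.07 (adjusted p = 2.4e-22) by edgeR's quasi-likelihood test, Benjamini-Hochberg adjusted. This SE and p measure the spread between the 2 libraries of a line, not that between lines of a tumour type. A difference between tumour types in general was not tested. CDK2 stood at 50.7 and 51.3 in NCI-H1650, 81.9 and 112 in NCI-H520, 889 and 899 in Hs 936.T, and 105 and 93.3 in A375. Hs 936.T thus had 9.02 times the mean of the next line, A375, and its log2 difference from A375 was 3.23 ± 0.10 (adjusted p = 3.1e-26) in the same edgeR test, Benjamini-Hochberg adjusted. Per 1000 codons CDK2 reached 2654 CPM in Hs 936.T, above CCND1 (1938) and CDK1 (1201) there, while in the other lines CDK2 (151 to 294) lay below CDK1 (344 to 1346). CDC16 was also highest in Hs 936.T, with 36.2 and 35.7 in NCI-H1650, 31.4 and 29.9 in NCI-H520, 305 and 302 in Hs 936.T, and 84.4 and 72.8 in A375. CDC42EP3 and CCNG1 had their highest level there too, at means of 158 ± 28.6 and 164 ± 12.5 CPM (SD, n = 2). Of the 2 NCI-H520 DMSO libraries, replicate 2 had more melanocyte footprints (7.81%, against 3.27% in replicate 1) and more CDK2, and the part of one in the other was not tested.

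CDKN2A was present in 2 lines and nearly missing from 2. It stood at 4.53 and 0.916 in NCI-H1650, 129 and 116 in NCI-H520, 102 and 107 in Hs 936.T, and 1.1 and 1.83 in A375. CDKN2B followed the same order, with 0.906 and 0 in NCI-H1650, 23.8 and 16.5 in NCI-H520, 14.3 and 15.8 in Hs 936.T, and 0 and 0 in A375. The log2 difference in CDKN2A between NCI-H1650 and NCI-H520 was -5.52 ± 0.32 (adjusted p = 2.8e-17) and that between Hs 936.T and A375 was 6.08 ± 0.21 (adjusted p = 2.7e-24) by edgeR's quasi-likelihood test, Benjamini-Hochberg adjusted. CDKN1A ran the other way in the lung lines, with 155 and 222 in NCI-H1650, 9.52 and 13.4 in NCI-H520, 57.4 and 61.4 in Hs 936.T, and 121 and 118 in A375, a log2 difference of 3.94 ± 0.24 (adjusted p = 5.5e-17) between NCI-H1650 and NCI-H520 in the same edgeR test, Benjamini-Hochberg adjusted. CDC20 was highest in NCI-H520, with 206 and 182 in NCI-H1650, 649 and 632 in NCI-H520, 152 and 153 in Hs 936.T, and 373 and 388 in A375. CDC42BPG, a CDC42-binding kinase, was read in the lung lines, with 53.4 and 52.2 in NCI-H1650, 15.2 and 9.45 in NCI-H520, 0 and 0.527 in Hs 936.T, and 0.822 and 0 in A375. CDK14 had 0 counts in both NCI-H520 DMSO libraries and stood at 8.15 and 9.16 CPM in NCI-H1650, 4.76 and 5.54 in Hs 936.T, and 16.4 and 18 in A375.

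**Figure D5:**
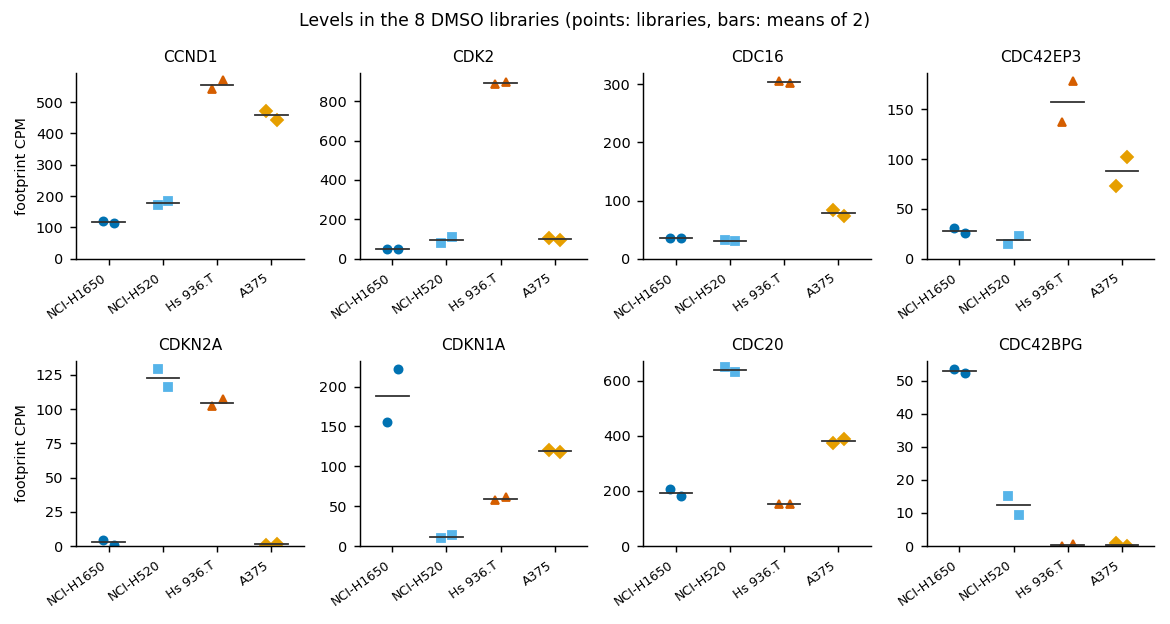
Footprint CPM (y axis) of 8 genes in the 2 DMSO libraries of each line (points, with their mean as a bar). CDK2 and CDC16 are far highest in Hs 936.T, CDKN2A is high in NCI-H520 and Hs 936.T only, CDKN1A is lowest in NCI-H520, and CDC42BPG is highest in NCI-H1650.

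Per 1000 codons, CDC42 ran from 1433 to 2344 CPM over the lines under DMSO. CCNB1 ran from 714 to 1077, CDK1 from 344 to 1346, CCND1 from 409 to 1938, and CDC20 from 311 to 1307. CDK4 ran from 310 to 702 and CDK6 from 92 to 289, with CDK4 above CDK6 in each line. CCNA2 ran from 135 to 308, CDC6 from 79.4 to 297, CDC25A from 27.4 to 98.4 and CCNE1 from 16.3 to 52.3.

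The 20 genes too low for the dose test are CCNA1, CCNB1IP1, CCNB3, CCND2, CCNI2, CDC14B, CDC20B, CDC42EP1, CDC42EP2, CDC42EP5, CDC42SE2, CDK3, CDK5R1, CDK5R2, CDK15, CDK19, CDK20, CDKN1C, CDKN2C and CDKN2D. With DMSO 6 of them, CCND2, CCNI2, CDC20B, CDK3, CDK5R2 and CDK15, stayed below 1 CPM in every library. CDC42EP1 reached 27.2 and 30.2 CPM in the NCI-H1650 DMSO libraries, and CDC42EP2 18.1 and 19.5 CPM in those of A375. CDC42EP1 had 0 counts over the 4 libraries at 3 µM where the DMSO level would give 7.22, so it was at least 2.41-fold lower there.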

How the data were processed

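Footprints were counted in 16 ribosome profiling libraries. Per the submitters' processing notes, reads were handled with CASAVA 1.8, Bowtie2 2.1.0 and TopHat2 2.0.9 on hg38. The authors deposited, for each of 182398 transcript entries, the number of codons counted and a raw footprint count, not normalized; their annotation release is not stated in these sources. Entries carry no gene names. Their lengths (coding codons less 10) were matched, in order along the genome, to coding transcripts of GENCODE 29, with a minimum posterior of 0.95. This named 18522 of 19371 coding genes, or 18514 of 19356 symbols once copies were merged, and the entry with the most counts stood for its gene. In a run with decoys, 96 decoy genes were named against 18623 real ones (0.515%), and of simulated entries 88.1% were named, 0.0543% of them wrongly. Gene assignments rest on this matching.

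Counts were analysed with edgeR 4.0.16 in R 4.3.3 (robust quasi-likelihood, trimmed mean of M-values, filterByExpr with a minimum count of 10, two-sided, Benjamini-Hochberg over all genes tested). Dose fits had terms for line and dose, and the lines were compared over the 8 DMSO libraries. DESeq2 1.42.0 was an alternative. Figures and tables used Python 3.11.15, NumPy 2.4.6, pandas 2.3.3, SciPy 1.17.1 and matplotlib 3.10.9. Changes per line are log2 CPM with a prior count of 2. On simulated counts planted 2-fold changes were found in 70% of cases at 0.3 µM (9266 genes), 57% at 3 µM (9232), 51% between doses (9285) and 69% between lung and melanoma lines (10075), with at most 0.144% false calls. Only a small set of genes was changed, and a planted dose effect was alike in every line. In the data 59.7% of genes were called at 0.3 µM and 56.9% at 3 µM, so these rates may not hold there.

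The genes, roles and lists were chosen with earlier results of these data known. Genes given by library are, per dose, the 6 genes that rose and the 6 that fell most, among those called with a mean of at least 10 CPM under DMSO, a list of core genes, the 3 with the smallest p for line response, and the 4 with the widest range over lines. No RNA-seq was used here, so fewer mRNAs and fewer ribosomes per mRNA cannot be told apart. DMSO replicates correlated at 0.961 to 0.992 (log2 CPM across genes) with a chi-square per degree of freedom of 1.53 to 2.57.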

Additional observations from a re-analysis of the deposited data

Results flagged for a closer look

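Over 88 sets of the 4 lines' changes, each for a named gene at 1 dose, 7 had a line standing apart by Dixon's test, which chance gives for about 1 set in 20. Changes are log2 CPM with RocA minus the line's DMSO mean. At 0.3 µM CDC42 changed by -0.28 in Hs 936.T, against -0.99 to -0.90 in the other lines. CDC42BPG changed by 1.64 in A375, where DMSO gave under 1 CPM and 0.3 µM 3.72 CPM, against -0.26 to -0.07. CDC6 changed by -6.12 in NCI-H520, against -2.38 to -2.18. That value comes from 0 counts and depends on the prior count; against 3 counts the fall was at least 9.94-fold. At 3 µM CDC20 changed by -1.79 in NCI-H1650, against -0.82 to -0.69. CDC40 changed by 1.56 in NCI-H520, against 1.32 to 1.36. CDK13 changed by -5.99 in NCI-H1650, against -1.87 to -1.15, again from 0 counts, which give at least 2.82-fold lower. CDK2AP1 changed by -1.46 in NCI-H520, against 0.20 to 0.31.

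The difference in RocA response between lines passed for ANAPC16 (adjusted p = 0.024) and CDC42EP3 (adjusted p = 0.032), both by edgeR's quasi-likelihood test, Benjamini-Hochberg adjusted. The values of both are given with the response by line. No cause was tested for any of these results.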

How the results depend on the processing

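Over 28 alternatives (DESeq2 or its size factors, other filters, thinned counts, the longest entry per gene, the replicate block, and leaving out the NCI-H521 labels, a line or a library) 46 to 54 genes passed at 0.3 µM and 47 to 56 at 3 µM. The lines under DMSO gave 75 to 87 over 14 alternatives, and lung against melanoma lines 49 to 56. Leaving out 1 library gave 48 to 53 at 0.3 µM, 47 to 56 at 3 µM, 78 to 84 between lines and 50 to 54 for lung against melanoma. Between the doses the count was 0 with DESeq2 and without the line Hs 936.T or A375, 2 with no filter or thinned counts, and 0 to 2 without 1 library. For the response by line it was 1 with DESeq2, with a minimum count of 30, without the NCI-H521 labels and without the line NCI-H1650 or A375, 4 with no filter, 0 with thinned counts and without the line Hs 936.T, and 0 to 4 without 1 library. ANAPC16 and CDC42EP3 both lost the call without the NCI-H521 labels, as did CDK2AP1 between the doses, and CDK2AP1 also without the line NCI-H1650 or NCI-H520. The causes were not tested.

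The replicate block gave 50 genes at 0.3 µM, 51 at 3 µM, 1 between doses, 2 by line, 82 between lines and 55 for lung against melanoma. Same-numbered DMSO libraries did not deviate together (correlations -0.02 to 0.08), so the numbers were not taken as a pairing.

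Of 3291 alternative values for 119 gene results, 3152 kept direction and side of the threshold, 111 kept direction but lost the call, and 6 gained it. Calls were lost in some alternative for 26 of 107 called results. The direction turned in 22 values, none of them called in either form. ANAPC16 at 0.3 µM gave 0.121 without the line Hs 936.T and -0.468 to 0.091 without 1 library. At 3 µM it gave -0.006 with DESeq2, -0.659 without the NCI-H521 labels, -0.668 without the line NCI-H520 and -0.664 to 0.382 without 1 library. CDC42BPG at 0.3 µM gave -0.003 with no filter, -0.046 with the replicate block, -0.012 without the NCI-H521 labels, -0.121 without the line A375 and -0.116 to 0.416 without 1 library. At 3 µM it gave -0.378 to 0.072 without 1 library. CDKN2B at 0.3 µM gave 0.045 without the line NCI-H520 and -1.183 to 0.035 without 1 library. CDK2AP1 at 3 µM gave -0.024 with DESeq2, -0.039 with no filter, -0.006 without the line Hs 936.T, -0.208 without the line A375 and -0.086 to 0.242 without 1 library. Depth limits most what NCI-H1650 at 3 µM can show.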
